A study of Mus musculus with 6 samples.

Results

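Neutrophil azurophil granule genes were followed in cultured mouse bone marrow labelled wild-type or knockout for the de novo DNA methyltransferase Dnmt3a. The 7 genes were Elane, Mpo, Prtn3, Ctsg, Prss57, Fcnb and Ms4a3, found by their symbols among the 15139 genes of the deposited table. All 7 were present, and all 7 were among the 11365 genes tested, which are those with at least 1 FPKM in at least 2 libraries. Levels are given as FPKM, in which fragment counts are divided by the length of the gene and by the mapped total of the library.

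Azurophil granules are the first granules that a neutrophil precursor makes, at the promyelocyte stage, and their proteins are transcribed there and hardly at all in later neutrophils. They hold serine proteases stored in active form and bound to serglycin, and a peroxidase that makes hypochlorous acid inside the phagosome. In mice the same genes are switched on in granulocyte and monocyte progenitors, so they mark the early part of the neutrophil series, before the specific granule genes appear.

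The Dnmt3a knockout (KO) group was labelled Mx-Cre with Dnmt3a-/- bone marrow cells, and the wild-type (WT) group Mx-Cre with Dnmt3a+/+ bone marrow cells, so both carried the recombinase. Another label field calls the KO cells a knockdown. Mx-Cre is an interferon-inducible recombinase used to delete genes in blood cells, and the sources used here do not give its induction, the age of the mice or any pooling of animals. The cells of both groups were grown in RPMI with 10% serum, interleukin 3 at 10 ng/ml and stem cell factor at 50 ng/ml, a pair that favours mast cells and immature myeloid cells, and were taken at week 1. KO had replicates 2 and 3, and its replicate 1, which has labels but no values used here, is not analysed, and WT had replicates 1, 2 and 3.

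Dnmt3a itself stood at 2.58 and 3.42 FPKM in KO replicates 2 and 3, against 6.68, 9.99 and 9.04 FPKM in WT replicates 1, 2 and 3 (log2 change -1.25 ± 0.17 SE, limma adjusted p = 0.00279). Some Dnmt3a transcript thus remained in the KO libraries, and how complete the deletion was is not known. Xist and Ddx3y marked both KO libraries and WT replicate 1 as male and WT replicates 2 and 3 as female. The read totals are unknown, and FPKM summed to between 560387 and 604368 per library. In bulk RNA, fewer cells of a type and less RNA per cell cannot be told apart.

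The promoters of Elane, Prtn3, Mpo and Ctsg are shown here because these 4 genes held most of the azurophil transcripts and fell by different amounts. Each runs 5′ to 3′ on the strand of the gene, from 250 bases before to 50 after the RefSeq start in GRCm38.p6. Capitals mark GAGGAA, a sequence bound by the myeloid factor PU.1, and GGAAGT, a core of the wider ETS family, and the 2 overlap where they run on as GAGGAAGT. The positions are chr10:79886062-79886361 on the plus strand for Elane, chr10:79879417-79879716 on the plus strand for Prtn3, chr11:87793534-87793833 on the plus strand for Mpo and chr14:56102525-56102824 on the minus strand for Ctsg.
Elane: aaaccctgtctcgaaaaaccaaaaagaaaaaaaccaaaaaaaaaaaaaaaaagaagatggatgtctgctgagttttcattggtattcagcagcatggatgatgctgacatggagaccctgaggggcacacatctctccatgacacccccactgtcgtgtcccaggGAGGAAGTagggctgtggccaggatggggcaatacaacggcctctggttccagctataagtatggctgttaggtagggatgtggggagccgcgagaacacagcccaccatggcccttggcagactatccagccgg
Prtn3: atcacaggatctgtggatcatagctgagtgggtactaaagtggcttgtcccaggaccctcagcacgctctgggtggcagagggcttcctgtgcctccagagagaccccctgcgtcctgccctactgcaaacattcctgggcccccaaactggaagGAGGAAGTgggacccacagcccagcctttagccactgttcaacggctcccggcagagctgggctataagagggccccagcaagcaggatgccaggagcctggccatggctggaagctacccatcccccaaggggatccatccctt
Mpo: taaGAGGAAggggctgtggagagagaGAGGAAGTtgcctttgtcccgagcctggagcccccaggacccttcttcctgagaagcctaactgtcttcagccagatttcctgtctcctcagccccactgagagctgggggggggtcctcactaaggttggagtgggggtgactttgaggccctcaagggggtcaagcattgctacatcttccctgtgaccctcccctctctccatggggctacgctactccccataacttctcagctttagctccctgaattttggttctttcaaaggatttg
Ctsg: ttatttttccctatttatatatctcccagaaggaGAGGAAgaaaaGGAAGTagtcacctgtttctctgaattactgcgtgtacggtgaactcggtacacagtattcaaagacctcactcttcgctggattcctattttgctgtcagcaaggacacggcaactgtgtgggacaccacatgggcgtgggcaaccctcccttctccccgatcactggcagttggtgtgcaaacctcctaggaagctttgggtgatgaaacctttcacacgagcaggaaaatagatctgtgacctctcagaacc
In Elane and Prtn3, neighbours on chromosome 10, the joined GAGGAAGT began 85 and 95 bases before the start. In Mpo it began 224 bases before the start. Ctsg held GAGGAA from 216 bases and a separate GGAAGT from 205 bases before it. Promoters were at hand for 6 of the 7 genes, all but Prss57. GAGGAA, on either strand, was in 5 of the 6, against 28.3% of 32851 promoters of the same length. GGAAGT was in 6 of 6, against 23.8%, and GAGGAAGT in 3 of 6, against 3.2%. Over the 11364 promoters of tested genes, the shares were 27.0% for GAGGAA, 29.9% for GGAAGT and 3.56% for GAGGAAGT. GGAAGT and GAGGAAGT were chosen after the sequences had been read, so these shares are descriptions. AACNG, the core bound by MYB, was in 5 of 6 (80.3% of all promoters), TTNNGNAA, bound by C/EBP factors, in 2 of 6, Fcnb and Ms4a3 (40.7%), and TGTGGT, bound by RUNX factors, in Ctsg alone (16.8%). The 6 windows held few CG dinucleotides, the sites that Dnmt3a can methylate, with 0 in Ms4a3, 2 each in Mpo and Fcnb, 4 in Prtn3, 6 in Elane and 8 in Ctsg. The median was 20 over 11364 promoters of tested genes and 7 over all promoters. A matching string is not evidence of a bound site.

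Most azurophil granule genes fell in the knockout. Of the 7, 6 were lower with a limma adjusted p under 0.05, where 22.1% of all tested genes changed by that rule, 13% lower and 9.08% higher, and 5 of these fell by at least 2-fold, where 2.89% of tested genes did. The median log2 change over the 7 was -1.46, against -0.04 over all tested genes. Both KO libraries lay below every WT library for all 7 genes, as they did for 30.8% of tested genes. The libraries can be split into 2 and 3 in only 10 ways, too few for an exact permutation to give a p under 0.05. The tests are therefore those of the fit across all genes.

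The granule proteases differed widely in how far they moved. Elane encodes neutrophil elastase, the protease whose human gene is mutated in severe congenital neutropenia. It stood at 51.2 and 40.4 FPKM in KO replicates 2 and 3, against 269, 202 and 190.1 FPKM in WT replicates 1, 2 and 3. The groups did not overlap, and the lowest WT library was 3.71 times the highest KO library. Elane had the largest fall of the 7, with means of 45.8 ± 7.67 FPKM in KO (SD, n = 2) and 220.1 ± 42.4 FPKM in WT (SD, n = 3) and a log2 change that came to -2.23 ± 0.16 (SE; limma adjusted p = 0.000335). Its change was the 21st lowest of all 11365 tested genes.

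Prtn3 encodes proteinase 3, a close relative of elastase and the main autoantigen of granulomatosis with polyangiitis in humans. It was the most abundant of the 7 in every WT library and the second after Ctsg in both KO libraries. Its level was 207 and 133 FPKM in KO replicates 2 and 3, against 519, 452 and 407 FPKM in WT replicates 1, 2 and 3. The KO libraries differed from each other by 1.55 times, and the higher of them was still below every WT library. The log2 change was -1.46 ± 0.19 (SE; limma adjusted p = 0.00200), with means of 169.8 ± 52.0 FPKM in KO and 459 ± 56.4 FPKM in WT (SD, n = 2 and 3).

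Ctsg encodes cathepsin G, a chymotrypsin-like protease that mast cells express as well as promyelocytes. Its values were 294 and 198 FPKM in KO replicates 2 and 3, against 371, 364 and 383 FPKM in WT replicates 1, 2 and 3. WT was tight here, with a highest library 1.05 times the lowest, while KO replicate 2 was 1.48 times KO replicate 3. The log2 change was -0.63 ± 0.15 (SE; limma adjusted p = 0.0268). This call was the weakest of the 6. It was lost without WT replicate 1, 2 or 3 (adjusted p = 0.0572, 0.0679 and 0.0777) and with sex as a covariate (0.134), and the log2 change was -0.34 without KO replicate 3 and -0.91 without KO replicate 2.

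Prss57 encodes another neutrophil serine protease, which cuts after arginine and is far scarcer than its relatives. It stood at 11.3 and 10.8 FPKM in KO replicates 2 and 3, against 14.0, 11.95 and 14.0 FPKM in WT replicates 1, 2 and 3. The gap between the groups was narrow, with the lowest WT library 1.06 times the highest KO library. Its log2 change of -0.25 ± 0.10 (SE) did not pass the test (limma adjusted p = 0.119), and it passed under none of the 16 alternative settings.

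**Figure D1:**
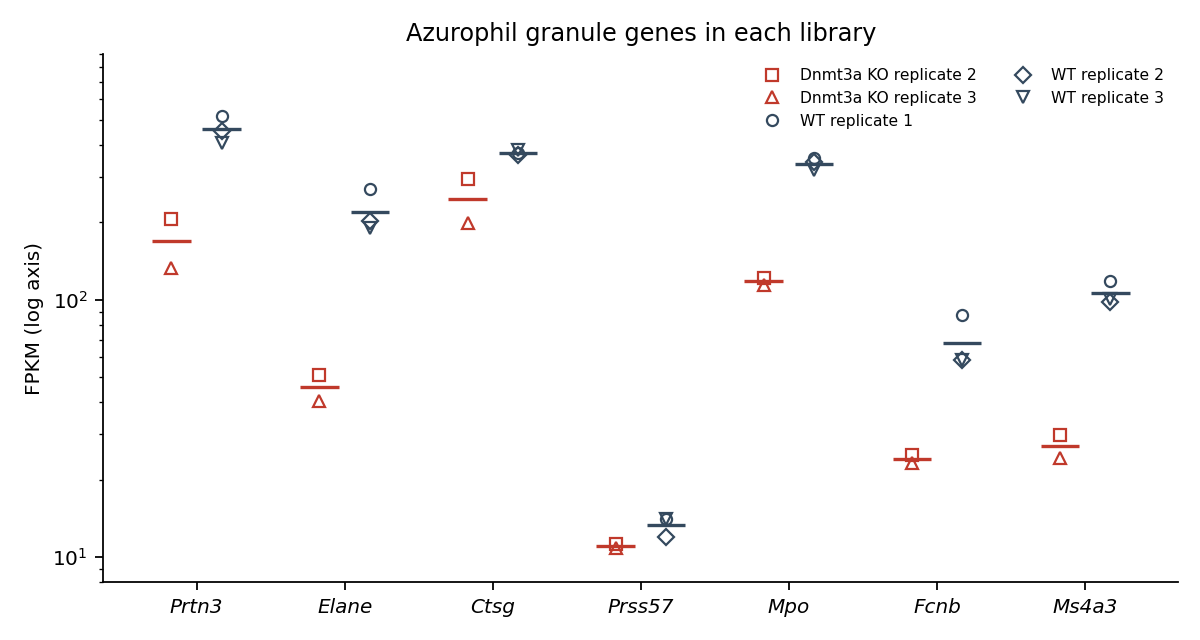
FPKM of the 7 azurophil granule genes on a log axis, with KO libraries in red to the left of WT libraries in dark blue for each gene; symbols stand for single libraries and lines for group means. Both KO libraries lie below every WT library for each gene, with a wide gap for Elane (40.4 to 51.2 against 190.1 to 269 FPKM) and a narrow one for Prss57.

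Mpo encodes myeloperoxidase, the haem enzyme by which azurophil granules are recognised in peroxidase stains. Its level was 122 and 115 FPKM in KO replicates 2 and 3, against 354, 342 and 318 FPKM in WT replicates 1, 2 and 3. Replicates agreed closely in both groups, within 1.06 times in KO and 1.11 times in WT. Its log2 change, -1.51 ± 0.08 (SE; limma adjusted p = 0.000236), had the smallest error of the 7, with means of 118 ± 5.17 FPKM in KO and 338 ± 18.3 FPKM in WT (SD, n = 2 and 3).

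Fcnb encodes ficolin B, a pattern-recognition lectin that can start the complement cascade. It stood at 25.0 and 23.3 FPKM in KO replicates 2 and 3, against 87.5, 58.6 and 58.5 FPKM in WT replicates 1, 2 and 3. WT replicate 1 was 1.49 times the mean of the other 2 WT libraries, and the groups did not overlap. The log2 change was -1.43 ± 0.17 (SE; limma adjusted p = 0.00157).

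Ms4a3 encodes a membrane-spanning protein rather than granule content, and in mice its expression marks granulocyte and monocyte progenitors. Its values were 29.8 and 24.3 FPKM in KO replicates 2 and 3, against 118, 98.4 and 100.5 FPKM in WT replicates 1, 2 and 3. Every WT library was at least 3.30 times every KO library. Ms4a3 had the second largest fall, with a log2 change that came to -1.93 ± 0.12 (SE; limma adjusted p = 0.000236) and means of 27.1 ± 3.90 FPKM in KO and 106 ± 11.1 FPKM in WT (SD, n = 2 and 3).

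**Figure D2:**
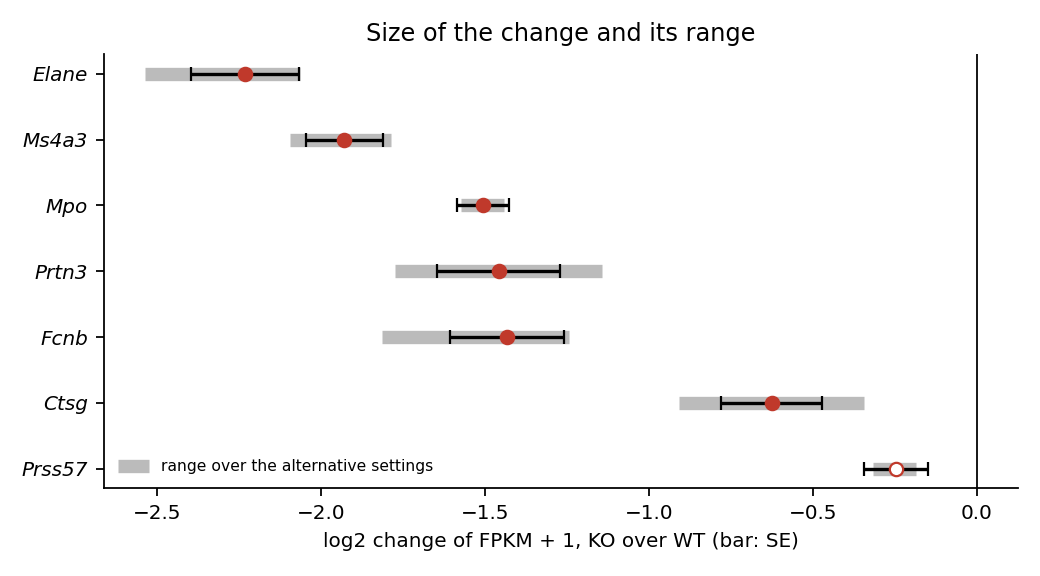
Log2 change of FPKM + 1, KO over WT, for each azurophil granule gene (points, with SE bars; a filled point passed the test at an adjusted p under 0.05) and its range over the 16 alternative settings (grey). Elane ranged from -2.54 to -2.07 and Mpo from -1.57 to -1.44, while Ctsg ranged from -0.91 to -0.34 and Prss57, the open point, from -0.32 to -0.19.

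WT replicate 1 was the highest WT library for Elane, Mpo, Prtn3, Fcnb and Ms4a3, by 1.07 to 1.49 times the mean of the other 2. It was also the only male WT library. With sex as a covariate, which sets both male KO libraries against WT replicate 1, the log2 change was -2.54 for Elane, -2.10 for Ms4a3, -1.82 for Fcnb, -1.64 for Prtn3 and -1.57 for Mpo, and these 5 genes kept a limma adjusted p between 0.00157 and 0.00887. Without WT replicate 1, the same 5 changes lay between -2.08 for Elane and -1.24 for Fcnb, with adjusted p between 0.000622 and 0.00503.

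The azurophil transcripts as a whole took a smaller part of the RNA in the knockout. The 7 genes summed to 740 and 544 FPKM in KO replicates 2 and 3, against 1732, 1529 and 1471 FPKM in WT replicates 1, 2 and 3. That is 0.123% and 0.0971% of all FPKM in the KO libraries and 0.251% to 0.287% in the WT libraries. The make-up of this sum differed as well. Ctsg held 39.7% and 36.4% of it in KO replicates 2 and 3, against 21.4%, 23.8% and 26.0% in WT replicates 1, 2 and 3. Elane held 6.93% and 7.42% in the KO libraries, against 12.9% to 15.5% in the WT libraries. Mpo held 16.5% and 21.0% in KO, against 20.4% to 22.4% in WT, so its shares overlapped. Shares of a sum depend on one another. Set against Mpo within each library, Elane was 0.420 and 0.352 times Mpo in KO replicates 2 and 3 and 0.759, 0.590 and 0.598 times Mpo in WT replicates 1, 2 and 3. Ctsg was 2.41 and 1.73 times Mpo in KO, against 1.05 to 1.20 times in WT. Prtn3 overlapped by this measure, at 1.69 and 1.16 times Mpo in KO and 1.28 to 1.47 times in WT, and so did Fcnb, at 0.205 and 0.203 times in KO and 0.171 to 0.247 times in WT. These ratios were not tested.

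**Figure D3:**
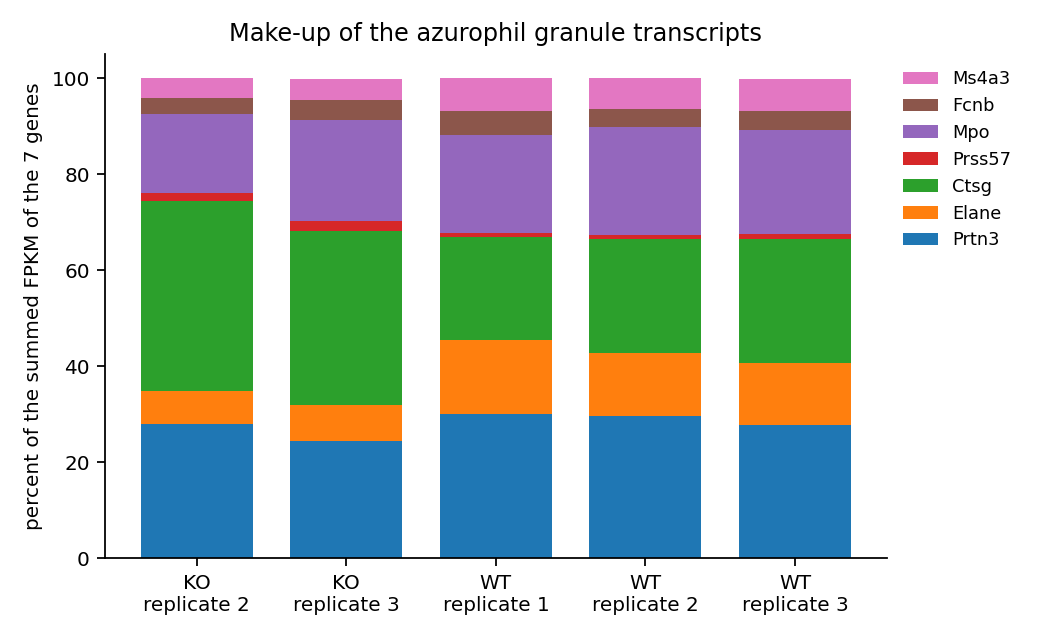
Percent of the summed FPKM of the 7 genes held by each gene in each library, KO libraries on the left and WT libraries on the right. The green Ctsg band is wider in both KO libraries (36.4% and 39.7%) than in the WT libraries (21.4% to 26.0%), and the orange Elane band is narrower (6.93% and 7.42%, against 12.9% to 15.5%).

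Prss57, Prtn3 and Elane lie in 1 stretch of chromosome 10 (GRCm38.p6). Prss57 runs from 79781474 to 79794684, Prtn3 from 79879667 to 79883174 and Elane from 79886312 to 79888216, so 3.14 kb separate Prtn3 from Elane and 85.0 kb separate Prss57 from Prtn3. Distances to neighbours are taken between the lowest coordinates of the genes. Within 250 kb of the 3 proteases, 23 other genes were tested, of which 5 fell and none rose, with a median log2 change of -0.05. Among all tested genes, 13% fell and 9.08% rose, with a median of -0.04. Plppr3, a phospholipid phosphatase-related gene, lies 25.8 kb from Elane, between Prss57 and Prtn3, and fell by 1.04 ± 0.08 on the log2 scale (5.56 and 5.21 FPKM in KO, against 11.8, 12.35 and 12.3 FPKM in WT; limma adjusted p = 0.000423). The other 4 were Palm (-0.47), R3hdm4 (-0.38), Cdc34 (-0.33) and Arid3a (-0.27), with limma adjusted p of 0.00717, 0.0125, 0.0292 and 0.0454. Arid3a and Cdc34 lost their calls under 13 and 10 of the 16 alternatives and R3hdm4 under 2.

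Ctsg, on chromosome 14 from 56099885 to 56102574, lies among protease genes of mast cells, basophils and cytotoxic cells. Of its 11 tested neighbours within 250 kb, 6 rose and none fell, with a median log2 change of 0.57. Among all tested genes, 9.08% rose and 13% fell. Gzmb, granzyme B, rose by a log2 change of 1.27 ± 0.14 (1335 and 1337 FPKM in KO, against 645, 459 and 578 FPKM in WT; limma adjusted p = 0.00120), Gzmc by 0.93 and the mast cell protease gene Mcpt2 by 1.19. Gzmc, counted among the 6 and in the median, passed the filter of 1 FPKM in 2 libraries through its KO libraries alone. It had 1.47 and 1.54 FPKM in KO, against 0.30, 0.39 and 0.25 FPKM in WT. The call of Mcpt2 was lost with a sex term and without WT replicate 2 or KO replicate 2 (adjusted p = 0.0815, 0.0588 and 0.0821). Nynrin (1.13), Khnyn (0.57) and Cma2 (0.76) also rose. Nynrin had 3.14 and 3.32 FPKM in KO, against 0.84, 0.87 and 1.11 FPKM in WT. Like Gzmc, it would not have passed the filter by its WT libraries. The call of Cma2 (adjusted p = 0.0499) was lost under 11 of the 16 alternatives, and that of Khnyn with sex as a covariate (0.0647). The basophil protease gene Mcpt8, 17.7 kb away, did not pass (-0.22, adjusted p = 0.306), nor did the chymase genes Mcpt4 (0.34, 0.424) and Cma1 (0.35, 0.471), though Cma1 did without KO replicate 3 (0.93, 0.00916). These genes are close relatives, and reads shared between copies can make their levels uncertain.

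Ms4a3, on chromosome 19 from 11629499 to 11640851, belongs to a cluster of related genes that moved in both directions. Ms4a2, 14.0 kb away, encodes the beta chain of the IgE receptor of mast cells and basophils. It stood at 267 and 310.4 FPKM in KO replicates 2 and 3, against 149, 150.0 and 166 FPKM in WT replicates 1, 2 and 3, and its log2 change was 0.89 ± 0.09 (SE; limma adjusted p = 0.000909). Ms4a6d, 42.9 kb away, fell by 1.70 ± 0.10 on the log2 scale (18.5 and 15.0 FPKM in KO, against 54.6, 58.2 and 56.3 FPKM in WT; limma adjusted p = 0.000236). Ms4a6c (-1.74) and Ms4a4c (-1.42) fell too, as did Ms4a6b (-0.70, adjusted p = 0.0450), which lost its call under 10 of the 16 alternatives. Of the 8 tested neighbours of Ms4a3, 4 fell and 2 rose, the second being Stx3 (0.44), a syntaxin of membrane fusion. Among all tested genes, 13% fell and 9.08% rose. Ms4a4c, counted among the 4, passed the filter of 1 FPKM in 2 libraries through its WT libraries alone. It had 0.58 and 0.24 FPKM in KO, against 3.54, 2.45 and 2.35 FPKM in WT.

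Mpo, on chromosome 11 from 87793784 to 87804412, lies 70.2 kb from Epx, the peroxidase gene of eosinophils and its near relative. Epx stood at 450.1 and 675 FPKM in KO replicates 2 and 3, against 497, 554 and 685 FPKM in WT replicates 1, 2 and 3, and did not pass (log2 change -0.06, limma adjusted p = 0.869). Of the 8 tested neighbours of Mpo, Dynll2, a dynein light chain gene, rose by 0.41 (limma adjusted p = 0.00947; 0.0856 with sex as a covariate) and none fell. Among all tested genes, 9.08% rose and 13% fell. Fcnb, on chromosome 2 from 28076479 to 28084910, had 1 tested neighbour, Olfm1, an olfactomedin gene. Olfm1 fell by 2.43 ± 0.26 on the log2 scale, with 6.89 and 2.95 FPKM in KO replicates 2 and 3, against 26.8, 31.6 and 29.1 FPKM in WT replicates 1, 2 and 3 (limma adjusted p = 0.000947).

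**Figure D4:**
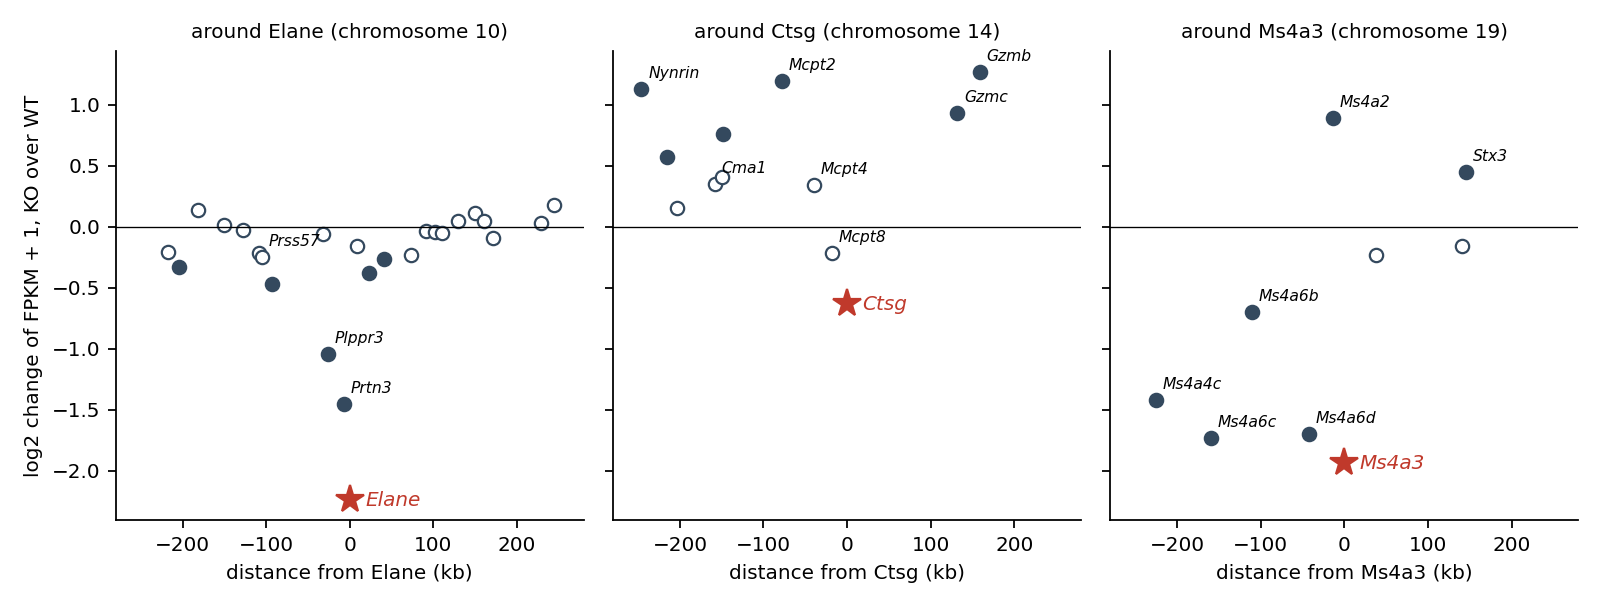
Log2 change of FPKM + 1, KO over WT, of the tested genes within 250 kb of Elane, Ctsg and Ms4a3 (stars), by distance in kb; filled points passed the test and open points did not. Prtn3 and Plppr3 fell beside Elane while most genes around them lie near 0, Ctsg fell among genes of which 6 rose, and on one side of Ms4a3 lie both Ms4a2, which rose, and Ms4a6d, which fell.

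C/EBP alpha, PU.1, MYB and RUNX1 with its partner CBF beta are known activators of azurophil granule genes, and GFI1 and C/EBP epsilon act in the passage to later stages. Of 14 tested factor genes, 6 fell and 1 rose, with a median log2 change of -0.19, where 13% of all tested genes fell and 9.08% rose. Cebpa had 44.7 and 47.3 FPKM in KO replicates 2 and 3, against 68.2, 73.7 and 77.2 FPKM in WT replicates 1, 2 and 3, and its log2 change was -0.65 ± 0.08 (SE; limma adjusted p = 0.00162). Spi1, which encodes PU.1, had 161 and 161 FPKM in KO, against 252, 236 and 231 FPKM in WT, a log2 change of -0.57 ± 0.07 (limma adjusted p = 0.00202). The monocyte factor genes Irf8 (-1.87) and Klf4 (-1.80) fell further, and Cebpd (-0.85) and Cebpb (-0.43) fell as well. Cebpd lost its call without WT replicate 2 or KO replicate 3 (adjusted p = 0.0580 and 0.124), and Cebpb with sex as a covariate (0.0572). Myb rose by 0.31 (limma adjusted p = 0.0256), and it lost its call when any library but KO replicate 2 was left out (0.0654 to 0.0986), with sex as a covariate (0.133) and with the replicate block (0.0786). Under 3 of the 4 other scalings, or without KO replicate 2, 2 factor genes rose. Cebpe (-0.13, adjusted p = 0.476) and Gfi1 (-0.24, 0.145) did not pass, though Cebpe did without KO replicate 3 (-0.32, 0.0344). Nor did Runx1 (0.22, limma adjusted p = 0.0737) or Cbfb (-0.11, 0.276) pass. Runx1 had 38.6 and 40.2 FPKM in KO replicates 2 and 3, against 32.1, 33.9 and 34.9 FPKM in WT replicates 1, 2 and 3. Myb and Gfi1 were named after their values were seen.

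Genes that process or store the granule proteases, and genes of protease inhibitors, moved in both directions. Of 10 tested genes of maturation and packaging, 3 fell and 1 rose (median log2 change -0.10), where 13% of all tested genes fell and 9.08% rose. Ctsc, which encodes the cathepsin C that activates the proteases by removing a dipeptide, had 140.0 and 124 FPKM in KO replicates 2 and 3, against 198, 193 and 187 FPKM in WT replicates 1, 2 and 3 (log2 change -0.55 ± 0.08 SE, limma adjusted p = 0.00362). Srgn, serglycin, which holds the proteases in neutrophil and mast cell granules alike, rose by 1.06 ± 0.11, with 4082 and 4193 FPKM in KO, against 2067, 1846 and 2050 FPKM in WT (limma adjusted p = 0.000767). The lysosomal membrane genes Lamp1 (-0.62) and Lamp2 (-0.26) fell, Lamp2 losing its call under 13 of the 16 alternatives, and Cd63 (0.30, adjusted p = 0.0853) did not pass, though it did without KO replicate 3 (0.0221) and after total scaling (0.0297). Of 10 tested protease inhibitors, 4 rose and 2 fell (median 0.26), while a single one fell when WT replicate 1, WT replicate 2 or KO replicate 3 was left out, with no filter on low genes, and after median-of-ratios or upper-quartile scaling. With sex as a covariate 2 rose and 1 fell. Serpinb1a, an inhibitor of elastase, proteinase 3 and cathepsin G, rose by 0.46 ± 0.08 (limma adjusted p = 0.00855; 0.0909 with sex as a covariate). Slpi, the secretory leukocyte protease inhibitor, which acts on elastase and cathepsin G, had 802 and 623 FPKM in KO replicates 2 and 3, against 931, 1010 and 997 FPKM in WT replicates 1, 2 and 3. It fell by 0.47 ± 0.12 on the log2 scale (limma adjusted p = 0.0328), a call lost under 9 of the 16 alternatives. Serpina3g rose by 0.72, and Cst7, a cystatin that acts on cysteine proteases such as cathepsin C, by 0.83 ± 0.08 (limma adjusted p = 0.000662). Stfa1, a stefin, also against cysteine proteases, fell by 1.75. The 10 inhibitors thus mix those of serine and of cysteine proteases, and their counts are not for inhibitors of the azurophil proteases alone.

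Genes of later neutrophil stages and of other progenitors are set beside the azurophil genes for comparison. Among all tested genes, 13% fell and 9.08% rose. Of 18 tested later granule and neutrophil genes, 12 fell and none rose, with a median log2 change of -0.84. That count was 5 without KO replicate 3, 7 without WT replicate 2 and 7 when low genes were not filtered out. Chil3 (-1.49) and the oxidase subunit gene Cybb (-1.09) fell, and so did Wfdc21 (-1.16), the specific granule gene Lcn2 (-0.92) and Camp (-1.10), the cathelicidin gene. Lyz2, lysozyme, which macrophages also make, fell by 1.89. Wfdc21 and Lcn2 lost their calls without KO replicate 3 (adjusted p = 0.0510 and 0.0915), and Camp under 8 of the 16 alternatives. The collagenase gene Mmp8 (-0.64, adjusted p = 0.0603) and Retnlg (-0.46, 0.192) did not pass. Neither did Padi4 (0.11, limma adjusted p = 0.586) or Cxcr2 (-0.07, 0.5795), whose mean levels differed little between the groups. Padi4 averaged 75.1 FPKM in KO and 69.2 FPKM in WT, and Cxcr2 33.2 FPKM in KO and 34.9 FPKM in WT. Mmp8 passed under 5 of the 16 alternatives, with an adjusted p of 0.00449 at the lowest (log2 change -1.07, with sex as a covariate), and Retnlg passed without WT replicate 3 (0.0257). Of 14 tested genes of progenitors and promyelocytes other than the 7, 9 fell and 2 rose (median -0.50). Hp, haptoglobin, fell by 1.79, Igsf6 by 1.01, the granulocyte growth factor receptor gene Csf3r by 0.87 and Mgst1 by 0.83, while Cd34, carried by progenitors and mast cells, rose by 1.44 and Cst7 by 0.83.

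Markers of other cell types moved as well, with most mast cell markers higher and most monocyte and macrophage markers lower in KO. Among all tested genes, 9.08% rose and 13% fell. Of 14 tested mast cell markers, 11 rose and none fell (median log2 change 1.03), and their FPKM summed to 32784 to 36837 in KO libraries and 14007 to 15996 in WT libraries. Cpa3, the mast cell carboxypeptidase gene, rose by 1.39, and Kit, the stem cell factor receptor gene, by 1.21. Of 12 tested monocyte and macrophage markers, 10 fell and none rose (median -1.61), and they summed to 2731 to 3009 FPKM in KO libraries and 7155 to 9395 FPKM in WT libraries. Lyz2, also in the later neutrophil list, was the largest part of these sums, with 1311 to 1587 FPKM in KO and 4523 to 6477 FPKM in WT. Csf1r, the macrophage growth factor receptor gene, fell by 1.79. Ly6c2 (-0.04, limma adjusted p = 0.833) and Adgre1 (-0.05, 0.801) did not pass. The lists overlap. Srgn stands among the packaging genes and the mast cell markers, Irf8, Klf4, Lyz2 and Ly6c2 stand in the monocyte list and in another, and Cst7 is counted among both the inhibitors and the progenitor genes. No marker of these lists that was in the deposited table was at 0 in every library. Ly6g, of the later neutrophil list, was not in that table. Mmp25 of the same list, and Flt3 and Bpi of the progenitor list, were in it but did not pass the filter. The part that these shifts have in the levels of the azurophil granule genes was not tested.

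**Figure D5:**
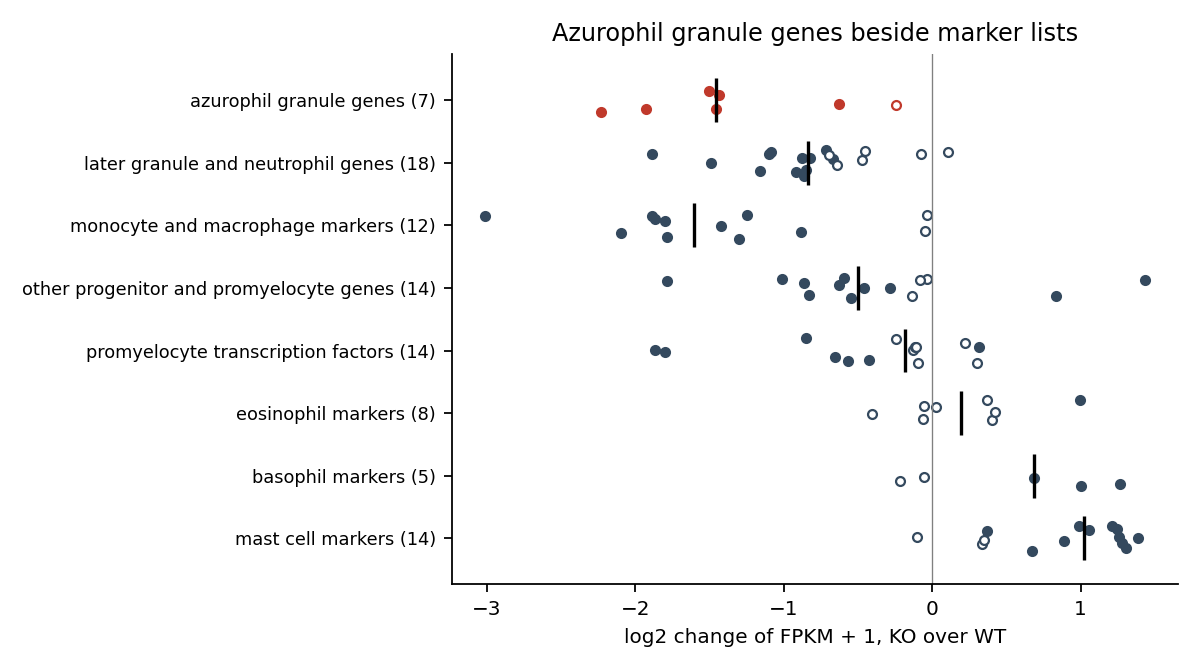
Log2 change of FPKM + 1, KO over WT, of each tested gene in the azurophil group (red) and in 7 marker lists (dark blue), with the number tested in brackets and the list median as a black line; filled points passed the test. The azurophil median of -1.46 lies between those of the monocyte list (-1.61) and the later neutrophil list (-0.84), and the mast cell list lies at 1.03.

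The genes with the pattern over the 5 libraries most like the mean of the 7, by root mean square distance between centred log2 values, were Ccl17, Ifi203, Ppic, Kynu, Ms4a4c and Msantd3, at distances of 0.0526 to 0.0772. Ccl17, a chemokine gene, had 5.27 and 4.31 FPKM in KO replicates 2 and 3, against 14.3, 12.1 and 11.9 FPKM in WT replicates 1, 2 and 3. Ppic, a cyclophilin gene, had 8.25 and 6.88 FPKM in KO, against 21.9, 21.2 and 18.8 FPKM in WT. Ifi203, Kynu, Ms4a4c and Msantd3 were low in KO (0.24 to 1.66 FPKM), the last 2 passing the filter through WT alone. With 0.1 in place of 1 added to the FPKM, their log2 changes were -1.78, -1.90, -2.56 and -2.06, from -1.35, -1.26, -1.42 and -1.34. Ccl17 and Ppic went to -1.40 and -1.44, from -1.25 and -1.34. The distances were not taken with other pseudocounts. Within the group, Mpo (0.119), Prtn3 (0.129) and Fcnb (0.139) lay nearest to the mean pattern, and Prss57 (0.552), Elane (0.441) and Ctsg (0.377) farthest from it.

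The authors' deposited table holds its own fold and tests for the 7 genes. Its signed fold, negative where KO is lower, was -4.81 for Elane, -3.91 for Ms4a3, -2.86 for Mpo, -2.82 for Fcnb, -2.71 for Prtn3, -1.52 for Ctsg and -1.21 for Prss57. The adjusted p of the second test in the authors' deposited table was 0.000986 for Ms4a3, 0.00697 for Elane and 0.0340 for Fcnb, and 0.163 for Prtn3, 0.230 for Mpo, 0.906 for Ctsg and 0.990 for Prss57. The unadjusted p of the first test in the authors' deposited table was 0.000552 for Mpo, 0.00266 for Ms4a3, 0.0103 for Prtn3, 0.0120 for Elane, 0.0386 for Fcnb, 0.0397 for Ctsg and 0.0868 for Prss57, so 6 of the 7 were under 0.05, as were 23.9% of all its genes. By the adjusted p of the second test, 3 of the 7 passed 0.05, as did 6.09% of the 15139 genes of the authors' deposited table. The sources used here do not say on which values that second test was run.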

How the data were processed

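RNA of cultured bone marrow cells was enriched for mRNA by oligo(dT) and sequenced by Illumina HiSeq, per the labels' protocols. HISAT, StringTie 1.2.1, edgeR and build mm10 are named in the submitters' processing notes, with no role or order. The sources used here give no strand setting, annotation or counting rule. The authors deposited FPKM per library, and beside them a score (a signed fold and log values) and p-values, per the file headers.

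Of 15139 rows, 14603 were matched by gene number to RefSeq GRCm38.p6 for symbols and positions, and promoters are RefSeq's in that build. Libraries were grouped by title. limma 3.58.1 in R 4.3.3 fitted log2(FPKM + 1) with genotype alone, a trended variance and 3 residual degrees of freedom. Two-sided p-values had Benjamini-Hochberg adjustment over 11365 genes (at least 1 FPKM in 2 or more libraries), and the procedure was tested on simulated data. A log2 change is KO over WT on this scale and understates the change of low genes. Whether replicates came from separate animals is not stated, so the p-values rest on the spread of these libraries alone, some of which may be technical. Depth and counting error are unknown. Alternatives were other pseudocounts, filters, scalings and variance settings, sex as a covariate, a replicate block and leaving out each library.

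The genes, lists and tests were chosen with earlier results of these data known. Named were the 7 genes, up to 6 called and 3 uncalled genes per list, the 6 nearest patterns and genes within 250 kb. Lists covered packaging, inhibitors, factors, progenitors, later neutrophils, relatives, and mast cell, basophil, eosinophil, monocyte and erythroid markers.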

Additional observations from a re-analysis of the deposited data

How the results depend on the processing

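The fall of Elane, Mpo, Prtn3, Fcnb and Ms4a3 kept its direction and its call under all 16 alternatives, and the number of the 7 genes called lower was 6, or 5 where Ctsg lost its call. Over all genes, 2507 changed, 1032 higher and 1475 lower in KO. With sex as a covariate the numbers were 1312, 520 and 792. Leaving out 1 library gave 1623 to 2659 changed genes, 679 to 978 higher and 944 to 1681 lower, the lowest without WT replicate 2. The share of calls that were higher was 41.2%, and 52.5% after upper-quartile scaling. Without KO replicate 2 or 3 the KO arm is 1 library, assumed to vary like WT, so calls kept, lost or gained there rest on the spread of WT alone. No scaling moved the median of all genes by more than 0.1. Of 66 other genes followed, 42 kept their call and direction throughout. Those that changed sign had not passed the test: over the fits that left out 1 library, Cebpe ranged from -0.32 to 0.063, Cma1 from -0.24 to 0.93, Mcpt4 from -0.0033 to 0.68 and Epx from -0.35 to 0.24, and Epx was 0.0088 after upper-quartile scaling and 0.15 with sex as a covariate. The causes were not tested. With the replicate number as a block, 2058 genes changed and 6 of the 7 were lower, Elane by a log2 change of -2.08. WT replicate 1 is alone in its block, so this fit rests on replicates 2 and 3, with 1 residual degree of freedom. Its log2 changes are therefore those of the fit without WT replicate 1, and the 2 settings are not independent. The groups share the numbers 2 and 3 alone, and deviations of same-numbered libraries correlated at -0.0292 and 0.0985, so the numbers were not taken as pairs. FPKM hide depth, which limits what can be said of Prss57, the lowest of the 7.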

Other observations

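Other granulocyte lists were counted as well. Among all tested genes, 9.08% rose and 13% fell. Of 5 tested basophil markers, 3 rose and none fell (median log2 change 0.68). The 3 were Gzmb (1.27), Cd200r3 (1.01) and Cyp11a1 (0.68). The more abundant protease genes Mcpt8 (-0.22, limma adjusted p = 0.306) and Prss34 (-0.06, limma adjusted p = 0.8625) did not pass. Of 8 tested eosinophil markers, 1 rose and none fell (median 0.20), and none rose without WT replicate 2 or KO replicate 3 or with no filter on low genes, while 1 fell without WT replicate 1 or with the replicate block. Of 6 tested erythroid markers, 3 fell and none rose (median -0.43), while 1 fell without KO replicate 3 or with sex as a covariate, and 1 rose without WT replicate 1 or with the replicate block. Gzmb, Mcpt8, Cma1, Mcpt4, Epx and Ms4a2 stand among the relatives counted next and in a marker list as well. Among 14 tested relatives of the 7 genes, 3 rose and 6 fell (median -0.14), with the rises in the granzyme and mast cell protease family and Ms4a2, and falls in Ms4a4c, Ms4a6c, Ms4a6d and Ms4a7 (-1.57) among others.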
